A study of Mus musculus with 6 samples.

Results

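The small leucine-rich proteoglycans are secreted proteins built from leucine-rich repeats, most of which carry sugar chains. The genes described here are the 10 listed family members Dcn, Lum, Bgn, Ogn, Omd, Aspn, Prelp, Fmod, Kera and Epyc, chosen by symbol. All 10 were present among the 23930 amplicons of the deposited table, each as 1 row. RNA came from the shaft of the mouse humerus at E16.5, late in limb development. The control group (n = 3) is called wild type in the labels and has the genotype Stat3C/+ with no driver listed. The knockout group (n = 3) has the genotype Prrx1Cre; Stat3C/C, read here as both copies of a conditional Stat3 allele with the driver that recombines it. Prrx1Cre is a driver active in limb bud mesenchyme, which gives rise to limb cartilage, bone and tendon, so blood and endothelial cells of other origin would keep the gene. The 2 groups differ in the driver as well as in the number of Stat3C alleles, and these cannot be told apart. The libraries were made with an Ion AmpliSeq panel, in which each gene is read at a short amplified target. Levels are given in RPM, the reads at an amplicon scaled to the library total. Amplicons can differ in how well they amplify, so a level is compared between libraries and not between genes.

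In bone, cartilage and tendon these proteins coat collagen fibrils and set fibril width and spacing, and several bind growth factors such as TGF-beta. Class I holds decorin (Dcn), biglycan (Bgn) and asporin (Aspn). The first of these usually carries a chondroitin or dermatan sulfate chain, biglycan carries a pair of them, and asporin carries none. Class II holds lumican (Lum), keratocan (Kera), fibromodulin (Fmod), prolargin (Prelp) and osteomodulin (Omd), most of which can bear keratan sulfate. Class III holds osteoglycin (Ogn) and epiphycan (Epyc), the latter known from growth plate cartilage.

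The libraries held 9126493 to 13376550 recovered reads, with 9126493 to 11809106 in knockouts and 11640697 to 13376550 in controls. The labels do not state how the replicates relate to embryos or litters, so every p-value here covers only the spread between these samples. The Stat3 amplicon averaged 208 RPM over the controls (SD 5.82) and 193 RPM over the knockouts (SD 20.1, n = 3 each), and was not called. Its place relative to the deleted part is not stated, so it checks nothing. The bone markers Ibsp and Sp7 were read in all libraries, as were Acan and Col2a1 of cartilage, Tnmd and Scx of tendon and Ttn of muscle.

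Of the 10 genes, 3 were lower in the knockout, none was higher and 7 did not pass the test (limma on log2(RPM + 1), adjusted p under 0.05 over all 12846 amplicons tested). All 10 members were above the filter of 1 RPM on average and were tested. The background was 11.0% of tested amplicons called lower and 5.71% called higher, 16.7% in either direction. The 3 lower genes were Kera, Bgn and Lum, with changes of the group mean from -18.3% to -19.4%. On the log2 scale 8 members lay below 0 and 2 above it, with a median of -0.14, where the median of all amplicons tested was -0.06. Leaving out control replicate 1, or the variance trend, removed all 3 calls, and the calls moved with the scaling of the libraries as given for each gene below. In bulk tissue, fewer cells of a type and less RNA per cell cannot be told apart.

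**Figure D1:**
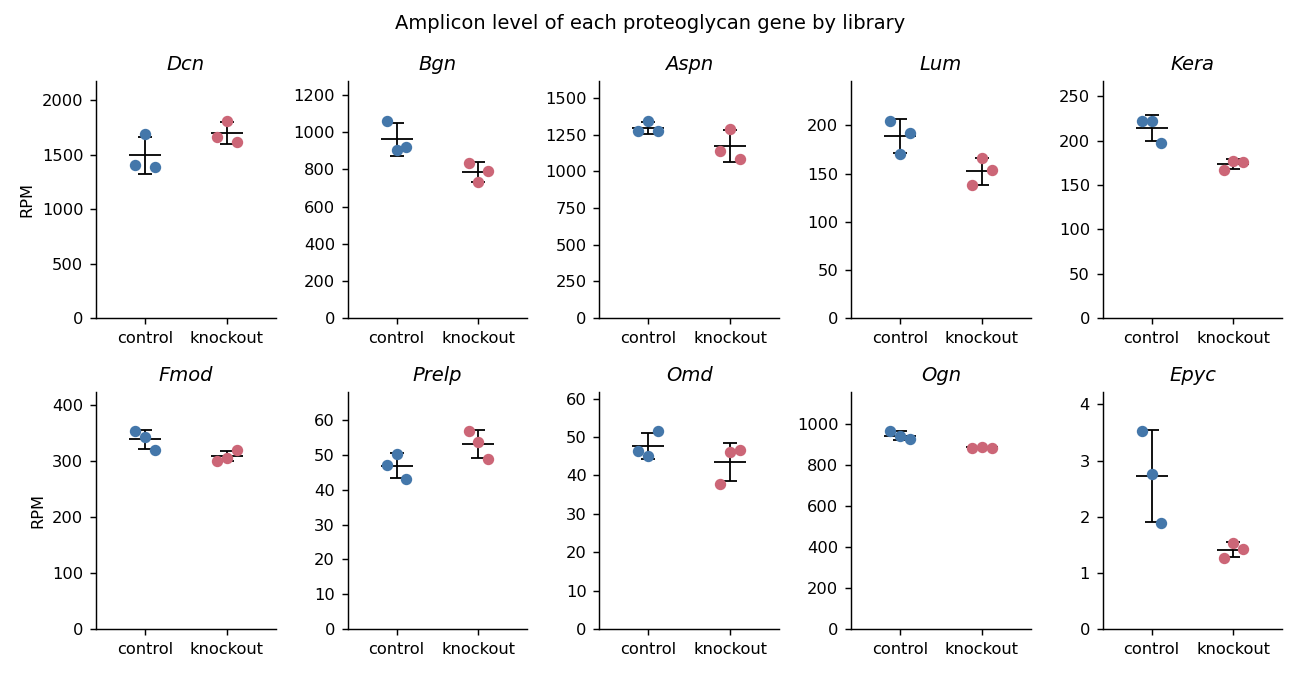
Level in RPM of each of the 10 genes in every library, with the mean and SD of 3 libraries per group as black lines. The knockout libraries of Lum, Bgn, Kera, Fmod, Ogn and Epyc all lie below the control libraries, while those of Dcn, Prelp, Aspn and Omd overlap with them.

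The groups were fully apart for 6 of the 10 genes, all 6 with the knockout lower. Over all tested amplicons, 33.8% had groups that were apart, 21.9% with the knockout lower and 11.9% with the knockout higher. For each of these genes the exact two-sided permutation test gave p = 0.1, the smallest that 3 samples against 3 allow.

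The genes lie mostly in clusters, which the choice by symbol did not use. In GENCODE M21 (GRCm38), Dcn (97479609 to 97518143), Lum (97565128 to 97572703), Kera (97606879 to 97613692) and Epyc (97644068 to 97682454) follow each other on the plus strand of chromosome 10. On chromosome 13 the plus strand holds Ecm2, which is no listed member, then Aspn (49544443 to 49567565), Omd (49582462 to 49592822) and Ogn (49608046 to 49624501). Prelp (133910304 to 133921414, minus strand) and Fmod (134037254 to 134048277, plus strand) lie on chromosome 1, and Bgn (73483602 to 73495933) lies on chromosome X. The coding sequence of these genes spans 894 bases in Ogn to 1269 bases in Omd. Lum, Kera, Fmod, Prelp and Omd, all of class II, have 2 coding exons each, while those of classes I and III have 6 or 7. The authors' genome build is not stated, so these are positions of the genes and not of the amplicons.

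Lum and Kera are neighbours and both were lower. Dcn, the gene before them, had a fold change of opposite sign, and none of the listed genes on chromosomes 13 and 1 passed the test. Aspn, Omd and Ogn overlap the Cenpp gene on the opposite strand, and Prelp and Epyc also overlap genes on the other strand. Whether the reads kept strand is not stated. The Epyc partner Gm10754 had at most 2 reads in any library.

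Start regions are shown for the called class I gene and for 2 uncalled members, Aspn and Ogn, whose windows held the letters searched for. The windows of Kera and Prelp, and the Epyc window at chr10:97646853-97647102, overlap annotated exons of these genes and are not shown. They are kept in the window counts below. RefSeq (GRCm38.p6) gave start regions for 8 of the 10 genes (9 windows), the table having no entry for Dcn and Lum. The 250 bases before the start are printed for the genes Bgn (chrX:73483351-73483600, plus strand), Aspn (chr13:49544193-49544442, plus strand) and Ogn (chr13:49607765-49608014, plus strand). Capitals mark letters matching TATAAA or TGTGGT on either strand, where adjoining matches share letters.
Bgn: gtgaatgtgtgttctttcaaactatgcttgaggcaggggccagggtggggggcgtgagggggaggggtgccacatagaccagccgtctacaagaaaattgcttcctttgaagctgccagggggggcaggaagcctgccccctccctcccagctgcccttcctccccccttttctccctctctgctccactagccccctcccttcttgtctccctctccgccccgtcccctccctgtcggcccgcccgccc
Aspn: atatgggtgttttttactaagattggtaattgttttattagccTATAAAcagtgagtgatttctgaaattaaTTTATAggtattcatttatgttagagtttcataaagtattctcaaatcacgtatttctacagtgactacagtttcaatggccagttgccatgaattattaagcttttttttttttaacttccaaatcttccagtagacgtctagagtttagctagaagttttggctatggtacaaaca
Ogn: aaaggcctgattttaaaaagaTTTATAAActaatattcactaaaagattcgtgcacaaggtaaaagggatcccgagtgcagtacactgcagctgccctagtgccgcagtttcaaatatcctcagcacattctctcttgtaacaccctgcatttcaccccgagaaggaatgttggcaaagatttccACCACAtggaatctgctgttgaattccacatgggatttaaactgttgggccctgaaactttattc
The window before Bgn is 64.4% G and C, against 42.0% before Ogn and 30.0% before Aspn, where the median over all 32851 windows of that length was 52.4%. The letters TTCNNNGAA, a form bound by STAT factors, were found in 0 of the 9 windows and in 7.02% of all windows. TATAAA was found before Aspn and Ogn, thus in 2 of 9 windows against 12.4% of all, and TGTGGT, a form bound by RUNX factors, before Ogn alone, against 14.0% of all. A match or its absence in these letters describes the window and nothing about binding.

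Among class I genes, Bgn was lower in the knockout. Biglycan is abundant in bone matrix and takes part in osteoblast maturation and mineral deposition. The control libraries read 1063, 903 and 922 RPM and the knockout libraries 835, 733 and 793 RPM. All 3 knockout libraries lay below the lowest control, with control replicate 1 the highest of the 6. The log2 fold change was -0.29 ± 0.08 (SE, n = 3 each, limma adjusted p = 0.0126). It remained called with TMM scaling (-0.23, adjusted p = 0.0427) and narrowly missed the threshold with DESeq2 on recovered reads (-0.23, adjusted p = 0.0504). The call was also lost with no filter on low values (adjusted p = 0.0727), without control replicate 1 (adjusted p = 0.0862) and without knockout replicate 2 (adjusted p = 0.0899).

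Dcn had the opposite sign. Decorin binds type I collagen and TGF-beta and is made by fibroblasts, tendon cells and osteoblasts. Its levels were 1408, 1689 and 1382 RPM in control replicates 1 to 3 and 1660, 1812 and 1617 RPM in knockout replicates 1 to 3. Control replicate 2 reached the knockout range and the groups overlapped. The log2 fold change was 0.19 ± 0.08 (SE, n = 3 each, limma adjusted p = 0.103), so the gene did not pass the test, and its 95% interval ran from 0.03 to 0.35 before adjustment over genes. With TMM factors the gene passed (0.25, adjusted p = 0.0425), as it did with median-of-ratios factors, edgeR (adjusted p = 0.0391) and DESeq2 on recovered reads (adjusted p = 0.0472). Leaving out control replicate 2 also put it past the threshold (0.28, adjusted p = 0.0388), while quantile normalization gave 0.12 (adjusted p = 0.300).

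Aspn, which encodes a collagen-binding inhibitor of TGF-beta and BMP2, did not pass. Its controls read 1275, 1346 and 1272 RPM and its knockouts 1141, 1290 and 1081 RPM, and knockout replicate 2 lay within the control range. The log2 fold change was -0.15 ± 0.07 (SE, n = 3 each, limma adjusted p = 0.162), with an interval from -0.30 to 0.0009.

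In class II, Lum and Kera moved by nearly the same amount. Lumican and keratocan carry keratan sulfate in the cornea, where they keep collagen fibrils evenly spaced, and lumican is also found in bone and cartilage matrix. Kera read 222, 222 and 197 RPM in the control libraries and 167, 177 and 176 RPM in the knockout libraries, with every knockout library below every control. The log2 fold change of Kera was -0.30 ± 0.08 (SE, n = 3 each, limma adjusted p = 0.0116). It passed under each scaling tried, at -0.24 with TMM factors (adjusted p = 0.0388), and was lost without a variance trend (adjusted p = 0.0857), without control replicate 1 (adjusted p = 0.0533) and without control replicate 2 (adjusted p = 0.0702).

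Lum read 205, 170 and 192 RPM in the control libraries and 138, 166 and 154 RPM in the knockout libraries. Control replicate 2 and knockout replicate 2 stood only a few RPM apart, although the groups did not overlap. The log2 fold change was -0.31 ± 0.09 (SE, n = 3 each, limma adjusted p = 0.0189). It was -0.25 with TMM factors, where it missed the threshold (adjusted p = 0.0550), and it missed it too with median-of-ratios factors (adjusted p = 0.0615), edgeR (adjusted p = 0.0596) and DESeq2 (adjusted p = 0.0726). The call was lost with no filter on low values (adjusted p = 0.0593) and without control replicate 1 (adjusted p = 0.101) or knockout replicate 1 (adjusted p = 0.0896).

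Fmod, Prelp and Omd did not pass the test. Fibromodulin, which binds type I collagen and is prominent in tendon, read 353, 344 and 320 RPM in the control libraries and 301, 306 and 319 RPM in the knockout libraries. Its groups stood less than 1 RPM apart at their nearest libraries, and its log2 fold change was -0.13 with an interval from -0.28 to 0.02 (limma adjusted p = 0.221). Prelp, whose product anchors basement membranes to connective tissue, read 47.2, 50.3 and 43.1 RPM in the control libraries and 56.8, 53.8 and 48.8 RPM in the knockout libraries. Only knockout replicate 3 fell within the control range, and the log2 fold change was 0.18, from -0.03 to 0.38 (limma adjusted p = 0.231). Osteomodulin, a keratan sulfate proteoglycan of mineralized tissue made by mature osteoblasts, read 46.5, 45.1 and 51.5 RPM in the control libraries and 37.7, 46.1 and 46.6 RPM in the knockout libraries. The Omd groups overlapped, and the log2 fold change was -0.13, from -0.35 to 0.08 (limma adjusted p = 0.409).

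The class III genes did not pass either, and they differed most in depth. Ogn, whose product is also called mimecan, read 963, 939 and 923 RPM in the control libraries and 883, 888 and 881 RPM in the knockout libraries. Its libraries were the closest to each other of the 10 genes, with an SD of 2.12% of the mean in controls and 0.387% in knockouts. The groups did not overlap, yet the log2 fold change of -0.09 ± 0.07 (SE, n = 3 each) lay near the median of all amplicons, and limma gave an adjusted p of 0.375. Under TMM scaling the Ogn value was -0.03.

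Epyc had the fewest reads of the 10 genes, and its fold change depended on the pseudocount. Its amplicon had 41, 37 and 23 reads in controls and 15, 14 and 14 in knockouts, which is 3.52, 2.77 and 1.89 RPM against 1.27, 1.53 and 1.43 RPM. All knockout libraries lay below all controls, but the controls alone spread from 1.89 to 3.52 RPM. The log2 fold change was -0.60 ± 0.22 (SE, n = 3 each, limma adjusted p = 0.0582) on a scale that understates changes of low genes, and it was -0.86 with a pseudocount of 0.1 RPM (adjusted p = 0.0652) and -0.16 with a pseudocount of 10 RPM (adjusted p = 0.0610). Leaving out control replicate 3 put it past the threshold (-0.78, adjusted p = 0.0286).

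**Figure D2:**
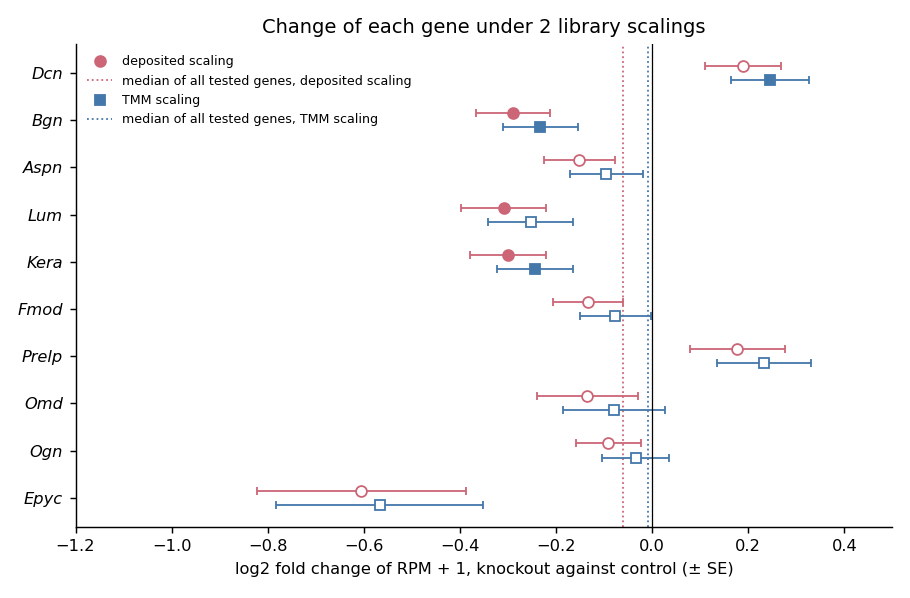
Log2 fold change of each gene (point, with SE) under the deposited scaling (circles) and TMM scaling (squares), filled where the limma adjusted p is under 0.05. Dotted lines are the medians of all tested amplicons, -0.06 and -0.01. Bgn and Kera are filled under both scalings, Lum only under the deposited one and Dcn only under TMM.

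TMM scaling raised the log2 fold change of every member. The factors were 1.01 to 1.03 in controls and 0.970 to 0.989 in knockouts, and they moved the median of all tested amplicons from -0.06 to -0.01. Quantile normalization instead lowered Dcn (0.19 to 0.12) and Aspn (-0.15 to -0.19) and raised Prelp (0.18 to 0.24) and Omd (-0.13 to -0.07). No member changed sign under any scaling tried, but Dcn and Lum changed their side of the threshold. Summed over the 10 genes, the controls reached 5587, 5712 and 5304 RPM and the knockouts 5220, 5473 and 5118 RPM. The groups overlapped, and the mean sum differed by -4.77% in the knockout by the deposited scaling and by -0.952% with TMM factors (exact two-sided permutation test, p = 0.2 and 0.7).

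Ratios between amplicons of the same library do not depend on its scaling, apart from the 1 RPM added to each value. In all, 7 pairs of neighbouring or closely related members were compared. The mean difference of a pair is the log2 fold change of its first gene minus that of its second, so it is not separate evidence. How often other gene pairs had groups apart was not counted. The ratio of Dcn to Bgn, on the log2 scale, was 0.40, 0.90 and 0.58 in controls and 0.99, 1.31 and 1.03 in knockouts. Every knockout library had more decorin reads per biglycan read than every control, by 0.48 on average, or 1.39-fold. The ratio of Dcn to Lum was 2.77, 3.30 and 2.84 in controls and 3.58, 3.44 and 3.39 in knockouts, a mean difference of 0.50. Both reached p = 0.1, the smallest possible, by the exact two-sided permutation test, and 0.175 after Benjamini-Hochberg adjustment over the 7 pairs, so neither passed.

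The ratio of Fmod to Prelp was 2.88, 2.75 and 2.86 in controls and 2.38, 2.49 and 2.69 in knockouts, a mean difference of -0.31 with no overlap. For Kera to Epyc the mean difference was 0.30 without overlap, but this value rests on the low Epyc reads, was 0.56 with a pseudocount of 0.1 RPM and 0.18 without control replicate 1. These pairs also had an exact permutation p of 0.1 and 0.175 after adjustment. For Lum to Kera the difference was -0.01 (exact permutation p = 1), and for Ogn to Omd and Ogn to Aspn it was 0.04 and 0.06 (exact permutation p = 0.8 and 0.5), with overlapping groups in all 3 pairs. A design of this size cannot show that those ratios were equal.

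**Figure D3:**
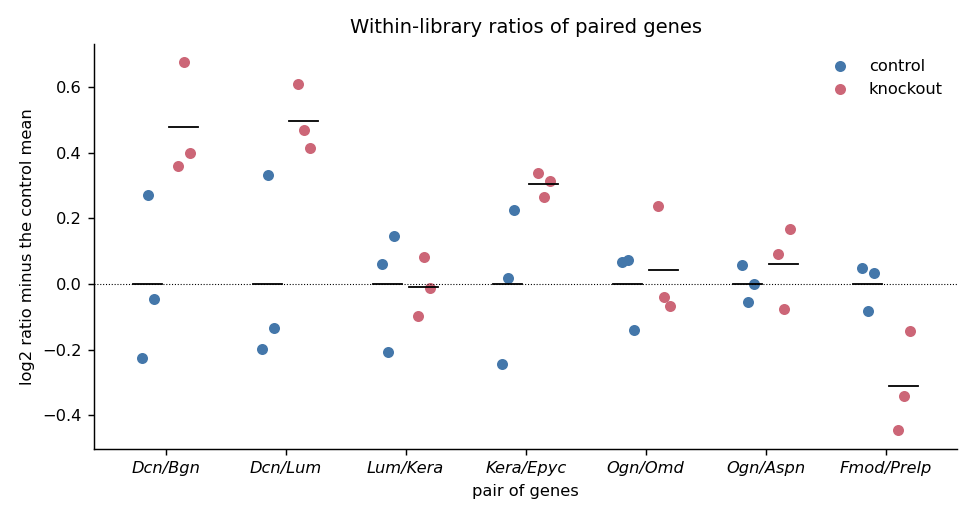
Within-library log2 ratio of 7 gene pairs, minus the control mean of the pair, with 1 point per library and a bar at each group mean. Groups are apart for Dcn/Bgn, Dcn/Lum, Kera/Epyc and Fmod/Prelp, and overlap for Lum/Kera, Ogn/Omd and Ogn/Aspn.

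Beyond the 10 genes, 7 further members of the family were in the table and 4 of them had enough reads to be tested. Chad, whose product chondroadherin binds collagen and integrins in cartilage, was higher. The control libraries of Chad read 65.8, 69.4 and 83.6 RPM and the knockout libraries 94.8, 103.9 and 106.2 RPM, with a log2 fold change of 0.48 ± 0.10 (SE, n = 3 each, limma adjusted p = 0.00163). The call held in all 18 alternatives, 12 of them other scalings and models and 6 with a library left out. Ecm2, the neighbour of Aspn, did not pass (19.1 ± 2.03 and 17.1 ± 1.84 RPM in controls and knockouts, SD, n = 3 each), nor did Podn or Tsku. Optc, Nyx and Podnl1, which fall outside the naming rule and were named after their values were seen, stayed at or under 1.101 RPM in each library.

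The collagens that these proteoglycans bind moved in both directions. Of 14 tested, 2 were higher, 1 was lower and 11 did not pass, with a median of 0.004 on the log2 scale. Over all tested amplicons 5.71% were called higher and 11.0% lower, the shares to set beside this count and those of the partner lists below. With TMM factors 3 were higher and 0 lower. Over all 12846 tested amplicons TMM factors gave 1042 higher and 928 lower. Those are the counts to set beside the TMM counts here and below. Col3a1, of thin fibrils in soft connective tissue, went from 3410 ± 223 to 4779 ± 402 RPM (SD, n = 3 each, limma adjusted p = 1.43e-04), and its call held in all 18 alternatives. Col11a1, which nucleates fibrils, was higher at 0.29. Col6a3, of the microfilaments to which biglycan binds, was lower at -0.25 and lost its call with TMM factors (adjusted p = 0.0889). The main bone collagen genes did not pass, Col1a1 at -0.06 (limma adjusted p = 0.698) and Col1a2 at -0.14 (0.159), nor did the cartilage gene Col2a1 at -0.17 (0.205).

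Most enzymes that build the sugar chains were uncalled, as were most of all tested amplicons, of which 16.7% were called in either direction. Among 22 tested genes of the linker and of chondroitin and dermatan sulfate, 2 were higher, 3 lower and 17 did not pass, with a median of -0.04. With TMM factors 2 were higher and 2 lower, with a median of 0.01. Chsy1, a synthase that extends chondroitin chains, fell from 68.4 ± 1.21 to 46.1 ± 2.32 RPM (SD, n = 3 each, limma adjusted p = 2.24e-04) and kept its call in all 18 alternatives. The chondroitin synthase partner Chpf2 was lower at -0.33 and the xylose phosphatase gene Pxylp1, named after its values were seen, at -0.32. The Pxylp1 call was lost with TMM factors (adjusted p = 0.103). The sulfotransferase gene Chst7 was higher at 0.65 and the linker enzyme gene B4galt7 at 0.39. The Chpf2 call was lost without control replicate 2 or knockout replicate 2, and the B4galt7 call without control replicate 1, control replicate 3 or knockout replicate 3. The dermatan sulfate genes Dse and Chst14 did not pass, at -0.02 and -0.14. Of 9 tested genes for keratan sulfate and sulfate supply only Papss2, which makes the sulfate donor, was lower (-0.42, limma adjusted p = 0.0422), and it was not called with TMM factors (adjusted p = 0.0691).

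Genes of the TGF-beta system, whose ligands several of these proteoglycans bind, had 1 higher and 2 lower of 9 tested, but 2 higher and 1 lower with TMM or median-of-ratios factors. Tgfb1 fell from 103 ± 4.70 to 81.3 ± 5.66 RPM (SD, n = 3 each, limma adjusted p = 0.0100), a call lost without knockout replicate 2 and without a variance trend. Tgfb2 and Tgfb3 had log2 fold changes of -0.01 and 0.004 and did not pass. The latent TGF-beta binding protein gene Ltbp4 rose by 0.55, in all 18 alternatives, while Ltbp1 was lower at -0.24, a call lost with TMM factors (adjusted p = 0.141).

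Among 15 receptors and partners described for decorin and biglycan, 2 were higher and 1 lower, and 3 were higher and 1 lower with TMM factors. Wisp1, also called Ccn4, encodes a matricellular protein that binds both decorin and biglycan and was lower, from 142 ± 12.5 to 104 ± 13.8 RPM (SD, n = 3 each, limma adjusted p = 0.00251). The elastin gene Eln was higher at 0.35.

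Among 11 tested proteases and their helpers, 2 were higher and 3 lower, and 2 were higher and 2 lower with TMM factors. Bmp1, whose product removes the propeptide of biglycan and osteoglycin and matures fibrillar procollagen, was at 298 ± 13.1 and 247 ± 27.3 RPM (SD, n = 3 each, limma adjusted p = 0.0244), a call lost with TMM factors (adjusted p = 0.0762). Pcolce, the enhancer of BMP1 on procollagen, fell from 462 ± 46.4 to 286 ± 13.0 RPM (limma adjusted p = 4.23e-06), and the gelatinase gene Mmp9 rose by 0.71. Mmp13, a collagenase of hypertrophic cartilage and osteoblasts, was lower at -0.39, and the serine protease gene Htra1, named after its values were seen, was higher at 0.25. The calls of Col11a1, Wisp1, Eln, Chpf2, B4galt7 and Htra1 were lost without a variance trend, and that of B4galt7 also with no filter on low values. Leaving out control replicate 1, control replicate 2, knockout replicate 2 or knockout replicate 3 removed the Htra1 call. Among the partner genes that lost their call with TMM factors, the call was kept in 3 of the 6 fits with a library left out for Col6a3, in 2 for Bmp1, Papss2 and Pxylp1 and in 1 for Ltbp1. These genes also lost it with median-of-ratios factors, edgeR and DESeq2, with no filter on low values and without a variance trend. Quantile normalization removed it for Papss2, Pxylp1 and Ltbp1, and robust variance shrinkage for Ltbp1.

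**Figure D4:**
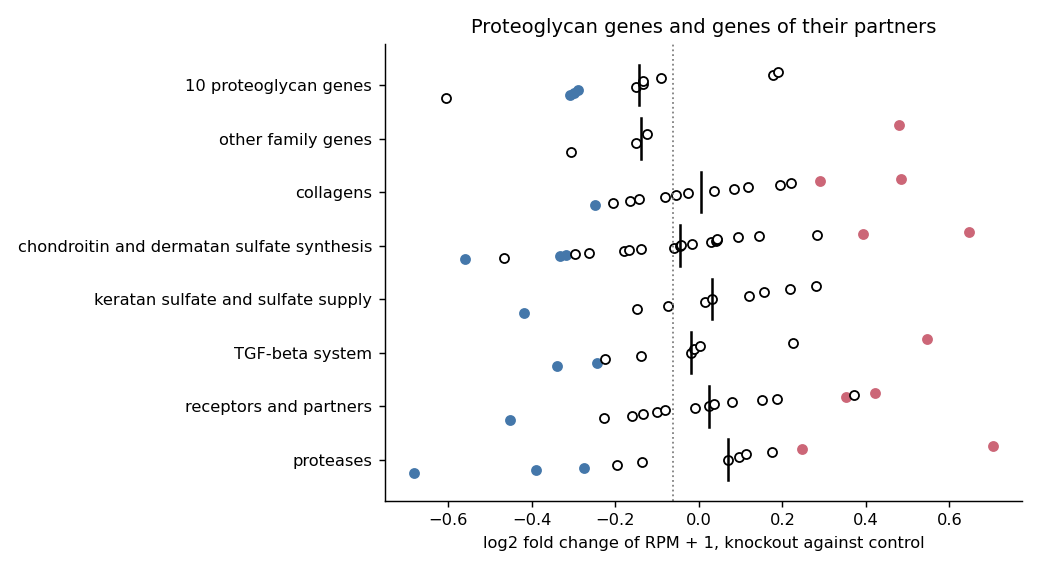
Log2 fold change of every tested gene in the 10-gene group and in 7 partner lists, with 1 point per gene, coloured where the limma adjusted p is under 0.05 (red higher, blue lower). Bars are list medians and the dotted line is the median of all tested amplicons, -0.06. The 10 genes have 3 lower points, and each partner list holds at most 5 called genes.

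Markers of the cells that make these proteoglycans moved as well. Over all tested amplicons 11.0% were called lower and 5.71% higher, the shares to set beside the count of each marker list here and below. With TMM factors 928 of 12846 were lower and 1042 higher. Of the osteoblast markers, 9 of 9 tested were lower, and their summed level was 9857 to 10945 RPM in controls and 7089 to 7167 RPM in knockouts. Ibsp alone went from 4328 to 2097 RPM on average. The listed osteoblast genes Bglap, Bglap2 and Ifitm5 had no amplicon under those symbols. Resting and proliferating chondrocyte markers were lower in 7 of 12 tested, with sums of 551 to 568 and 439 to 477 RPM, and hypertrophic markers in 5 of 7, with sums of 1275 to 1301 and 908 to 965 RPM. No marker in these 3 lists was higher, and with TMM factors 8, 5 and 5 markers were lower. The median log2 fold change was -0.62 for the osteoblast list, -0.65 for hypertrophic chondrocytes and -0.34 for the other cartilage list. Over the 10 proteoglycan genes it was -0.14. The 3 proteoglycan genes called lower, a part picked by the test, had values near -0.30.

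Tendon markers were higher in 2 of 6 (3 with TMM factors), Tnmd and Scx. The tendon sums were 2052 to 2217 RPM in controls and 2835 to 3182 RPM in knockouts. Tnmd alone went from 1502 to 2257 RPM on average. Fibroblast and periosteum markers were higher in 2 of 12 and lower in 3 (2 with TMM factors, 1 with quantile normalization). Their sums were 6847 to 7782 RPM in controls and 8732 to 9096 RPM in knockouts, while their median log2 fold change was 0.02. Col3a1 alone went from 3410 to 4779 RPM on average. Skeletal muscle markers were lower in 4 of 12 (3 with TMM factors, 6 with quantile normalization), with sums of 27642 to 31042 and 25286 to 27062 RPM. Endothelial markers were lower in 2 of 7 and pericyte markers in 1 of 7, with none higher in either list, but 1 endothelial marker was higher with TMM or median-of-ratios factors. Macrophage markers were higher in 3 of 8 and lower in 1. Their sum was 394 to 418 RPM in controls and 485 to 523 RPM in knockouts while their median log2 fold change was -0.27, and Lyz2 alone went from 134 to 230 RPM on average. Osteoclast markers were higher in 2 of 8 and lower in 1. Neutrophil markers were lower in 5 of 5, with sums of 88.4 to 90.1 and 37.4 to 40.8 RPM. Erythroid markers were higher in 1 of 3, epidermal markers in 2 of 4, and no adipocyte (3 tested) or nerve marker (7 tested) was called. The erythroid call, of Alas2, was kept in 1 of 6 fits with a library left out and lost without a variance trend. The same held for the macrophage gene Adgre1, while the higher macrophage genes Lyz2 and Cd68 kept their calls in all 6 fits. The adipocyte gene Lep had no read in any library. The part of these cell types in the proteoglycan values was not tested. No listed marker of bone, cartilage, tendon, fibroblasts or muscle was at 0 in all libraries.

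The 2 genes whose profile over the 6 libraries came nearest to each called member were searched among 9009 other amplicons that averaged 10 RPM or more. Likeness was the root mean square difference of log2(RPM + 1) after subtracting the mean of each gene. For Kera these were Gorab and Rbl2, each at 0.021 on the log2 scale. For Bgn they were Pard6g (0.032) and Tbc1d14 (0.036), and for Lum Wdfy2 (0.036) and Alms1 (0.040). None of these 6 genes passed the test themselves, and a nearest profile among so many amplicons is a description only.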

How the data were processed

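The authors deposited RPM values for 23930 amplicons in 6 libraries, made with the Ion AmpliSeq mouse transcriptome panel per the labels' protocols. No label or header names an aligner, a counter or a genome build. Every value above 0 (100%) was a whole number of reads within 0.1 read, so reads were recovered for count tests. A read was worth 0.0748 to 0.110 RPM. Groups came from sample titles. The main test was limma 3.58.1 (R 4.3.3, empirical Bayes with trend) on log2(RPM + 1) over 12846 amplicons averaging 1 RPM or more, with Benjamini-Hochberg adjustment and a threshold of 0.05. Alternatives were other pseudocounts, filters, scalings and variance models, a replicate block, edgeR 4.0.16, DESeq2 1.42.0 and leaving out each library. The members and lists were chosen with earlier results of these data known. Named genes are the members, fixed partners, up to 4 called genes per list by fold change and nearest profiles. One gene that this rule names is not reported here. Lists for endothelium, pericytes, macrophages, neutrophils, osteoclasts, erythroid cells, adipocytes, nerve and epidermis were also counted. Figures were drawn with matplotlib 3.10.9.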

Additional observations from a re-analysis of the deposited data

How the results depend on the processing

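No member changed direction in any alternative. The number of members called lower was 3, and 2 with TMM factors, median-of-ratios factors or edgeR, 1 with no filter on low values, 0 without a variance trend, 1 with DESeq2 and 0 to 4 with a library left out. The number called higher was 0, and 1 with TMM factors, median-of-ratios factors, edgeR or DESeq2 and 0 to 1 with a library left out. Dcn passed at 0.25 (TMM), 0.25 (median of ratios), 0.24 (edgeR) and 0.25 (DESeq2). Lum missed the threshold at -0.31 with no filter or no trend, -0.25 with TMM, median-of-ratios factors, edgeR or DESeq2. Bgn missed it at -0.29 with no filter or no trend and at -0.23 with DESeq2, and Kera at -0.30 with no trend. With a library left out, Dcn ranged from 0.14 to 0.28, Lum from -0.38 to -0.24, Bgn from -0.33 to -0.22, Kera from -0.36 to -0.27, Epyc from -0.78 to -0.45, Omd from -0.19 to -0.04 (nearest 0 without knockout replicate 1) and Aspn from -0.22 to -0.10 (nearest 0 without knockout replicate 3). The ratio differences ranged from 0.18 to 0.42 for Kera/Epyc, from -0.05 to 0.10 for Ogn/Omd and from -0.11 to 0.06 for Lum/Kera, with a change of sign in both of the last pairs. The cause of these changes was not tested.

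Over all amplicons 733 were higher and 1409 lower. No trend gave 361 and 634, and no filter 523 and 869. The lower count was 928 with TMM factors, 881 with median-of-ratios factors, 877 with quantile normalization, 922 with edgeR and 775 with DESeq2. The higher count in these settings was 1042, 1079, 979, 1052 and 998, in the same order. The share of calls that were higher, 34.2%, became 52.9% with TMM, 55.1% with median-of-ratios factors, 52.7% with quantile normalization, 53.3% with edgeR and 56.3% with DESeq2. With a library left out the counts were 442 to 705 higher and 729 to 1324 lower. They fell by over 1.5 times without control replicate 1 (481 and 749), control replicate 2 (442 and 729) or knockout replicate 2 (466 and 855).

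Deviations of same-numbered samples correlated at 0.01, -0.02 and 0.11, and only number 3 correlated best with its own number in both groups. So few values cannot tell whether the replicate numbers mark a shared litter or batch. With the replicate block 836 amplicons were higher and 1626 lower, and 0 members higher and 3 lower, with Kera, Bgn and Lum at -0.30, -0.29 and -0.31 and Dcn at 0.19. The Kera/Epyc difference was 0.56 with a pseudocount of 0.1 RPM, and the summed level differed by -263.9 RPM as deposited and -51.7 RPM with TMM factors. The Epyc amplicon had only 14 to 41 reads per library, the fewest of the members, which limits the precision of its values. The deposited values hold no molecular identifiers, so copies made in amplification cannot be told from separate molecules, and read numbers are not numbers of molecules.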
